A study of Mus musculus with 4 samples.

Results

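The 10 genes described here, Aqp4, Gfap, Ndrg2, Sparcl1, Slc1a2, Slc1a3, Aldoc, Aldh1l1, S100b and Gja1, are widely used markers of astrocytes. They were found by exact match of their symbols in a table of 26815 gene entries, where each symbol occurred once, and all 10 were among the 15315 entries that the authors tested. The table came from RNA sequencing of neural stem cells from the cortex of E14.5 embryos of CD-1 mice, bought as cells and kept as a monolayer in EGF and bFGF on poli-L-ornithine and laminin. Both groups had been transduced with a lentivirus and expanded under puromycin at 0.5 µg/mL, 2 libraries with a scrambled shRNA (SHC002) and 2 with 1 shRNA that targets Foxp1 (pLKO.1_sh_ex15), the libraries of a group coming from different passages. A single hairpin per group means that an effect of Foxp1 loss and an off-target effect of that hairpin cannot be told apart.

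The 2 conditions carry only the codes q1 and q2, and no header or label says which code carries which shRNA, so every direction below is q2 relative to q1. Foxp1 itself was 4.09-fold lower in q2 (log2 fold change -2.03, Cuffdiff q = 0.00162) per the authors' deposited table, and this was not used to name the codes. No value per library was used, so replicate spread could not be shown and read depth is unknown. Errors are standard errors of the log2 fold change, obtained by dividing the deposited fold change by the deposited statistic. A gene is called here when its deposited Cuffdiff q, adjusted over all tested entries, is under 0.05.

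Astrocytes are glia that clear glutamate and potassium from the space around neurons, move water through aquaporin-rich endfeet, share small molecules through gap junctions and release factors that act on synapses. In the developing cortex they arise from radial glia after the main period of neuron production, and cultured neural stem cells share a number of transcripts with both cell types. Slc1a3, Aldoc and Ndrg2 are therefore found in radial glia as well as in astrocytes, whereas Aqp4, Gfap and S100b are usually read as signs of a more mature astrocyte state.

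Of the 10 markers 7 were called lower in q2, 1 higher and 2 not. Among all 15315 tested entries 3.39% were called lower and 4.24% higher, together 7.63%. The 7 lower genes ranged from Aldoc, 1.76-fold lower, to Aqp4, 6.48-fold lower per the authors' deposited table, and 4 of them lay past 2-fold. Sparcl1 was the 1 gene that went the other way, 14.6-fold higher in q2 per the authors' deposited table. The median log2 fold change of the 10 was -0.87, against -0.05 over all tested entries with a finite value. In RNA from a whole culture, fewer cells that express these genes and less RNA of each gene per cell cannot be told apart.

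**Figure D1:**
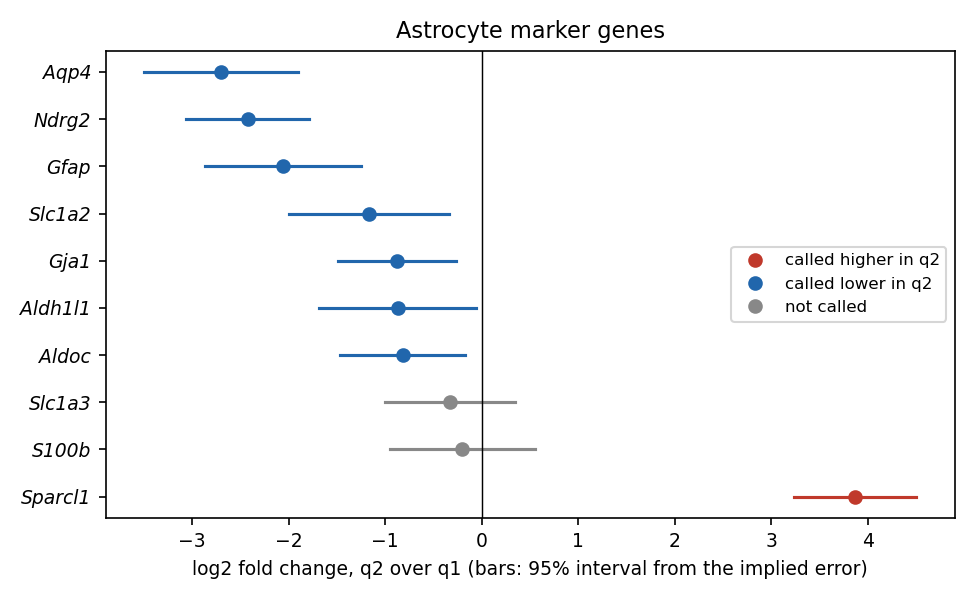
Values of the 10 markers (y axis) as log2 ratios of q2 to q1 (x axis) from the authors' deposited table, with bars for the 95% interval from the implied error; blue is called lower, red called higher and grey not called. The bars of 8 genes keep clear of 0, and those of Slc1a3 and S100b cross it.

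The order from low to high was Aqp4, Ndrg2, Gfap, Slc1a2, Gja1, Aldh1l1, Aldoc, Slc1a3, S100b and Sparcl1. The 95% intervals of each neighbouring pair overlapped up to S100b, and that of Sparcl1 stood apart from S100b, the next gene below it. The first 3 genes formed the low end, with intervals whose upper bounds were -1.90 for Aqp4, -1.78 for Ndrg2 and -1.25 for Gfap. The implied standard errors of the 10 ran from 0.31 to 0.42, beside a median of 0.38 over all tested entries. These intervals are wider than the authors' p would give: over 8804 entries the normal deviate of that p was a median 1.42 times the statistic. Whether the p-values or the statistic better reflect the true error was not tested.

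**Figure D2:**
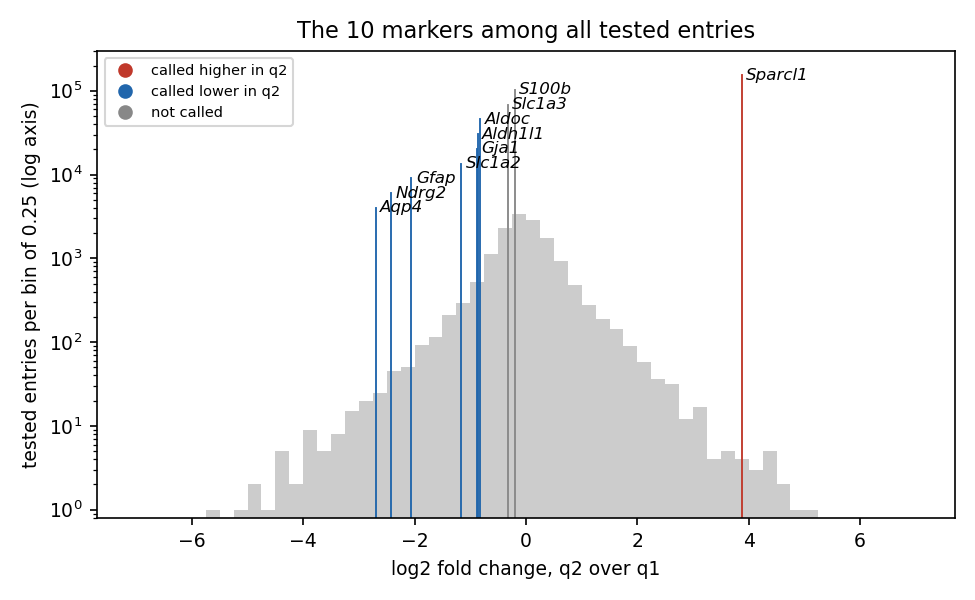
Number of tested entries (logarithmic y axis) per bin of the log2 ratio of q2 to q1 (x axis), with a line at each of the 10 markers coloured by its call. Aqp4, Ndrg2 and Gfap lie in the lower tail, Slc1a3 and S100b within the bulk, and Sparcl1 in the upper tail.

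Of the membrane proteins, Aqp4 had the lowest value. The gene encodes aquaporin 4, the water channel of astrocyte endfeet, and its log2 fold change was -2.70 ± 0.41 (Cuffdiff q = 0.00162) per the authors' deposited table. In q2 its RNA stood at 15.4% of the q1 value, and 0.487% of tested entries lay lower. The authors' locus for Aqp4 is on chromosome 18, 15389394 to 15403684 (GRCm38, minus strand).

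Slc1a2 encodes GLT-1, the main glutamate transporter of mature astrocytes, and stood at -1.17 ± 0.42 (Cuffdiff q = 0.00162) per the authors' deposited table. Slc1a3, which encodes the glutamate transporter GLAST of radial glia and astrocytes, stood at -0.33 ± 0.34 and was not called (Cuffdiff q = 0.496) per the authors' deposited table. The interval of Slc1a2 overlapped that of Slc1a3, and the difference between the transporters was not tested. Gja1 encodes the main gap junction protein of astrocytes, and was 1.83-fold lower in q2 (log2 fold change -0.88 ± 0.31, Cuffdiff q = 0.00527) per the authors' deposited table. Slc1a2 lies on chromosome 2, 102658683 to 102790784 (plus strand), Slc1a3 on chromosome 15, 8634124 to 8710807 (minus strand), and Gja1 on chromosome 10, 56377300 to 56390419 (plus strand), in the authors' loci. Of the 4 membrane markers, 3 were thus called lower, and Slc1a3 was the 1 without a call.

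Among the cytoplasmic proteins, Ndrg2, a member of the N-myc downstream regulated family with an alpha/beta hydrolase fold, stood at -2.42 ± 0.33 per the authors' deposited table. Gfap, the glial intermediate filament protein, was at -2.06 ± 0.41 (Cuffdiff q = 0.00162 for both) per the authors' deposited table. In q2 the RNA of Ndrg2 stood at 18.7% and that of Gfap at 24.0% of the q1 value. The authors' loci are on chromosome 14, 51905271 to 51913488, for Ndrg2 and on chromosome 11, 102887336 to 102897200, for Gfap, both on the minus strand. S100b (chromosome 10, 76253836 to 76261319, plus strand), which encodes a calcium-binding protein, differed little: its log2 fold change was -0.20 ± 0.38, with an interval from -0.95 to 0.56 (Cuffdiff q = 0.758) per the authors' deposited table. This interval reached from a reduction of 1.93-fold to an increase of 1.47-fold.

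Both enzymes were lower in q2 by less than 2-fold. Aldoc, the brain form of the glycolytic enzyme aldolase, was at -0.82 ± 0.33 (Cuffdiff q = 0.0101) per the authors' deposited table. Aldh1l1, the folate enzyme 10-formyltetrahydrofolate dehydrogenase, was at -0.87 ± 0.41 per the authors' deposited table, and its Cuffdiff q of 0.0453 was the nearest to the threshold. Aldoc lies on chromosome 11, 78324198 to 78326760, and Aldh1l1 on chromosome 6, 90550848 to 90599171, both on the plus strand. Reading p from the statistic moved Aldh1l1 past the threshold, to a Benjamini-Hochberg adjusted p of 0.0573, and it lost the call with centring (0.0687) and with the length trend removed (0.0881). With the GC trend removed it kept the call at 0.0136, the lowest of its alternatives, and with normal p-values it reached 0.413, the highest.

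Sparcl1 encodes hevin, a secreted matricellular protein of astrocytes that promotes the formation of excitatory synapses, and lies on chromosome 5, 104079109 to 104114088 (minus strand). Its log2 fold change was 3.87 ± 0.32, with an interval from 3.24 to 4.50 (Cuffdiff q = 0.00162) per the authors' deposited table. As a ratio of q2 to q1, that interval ran from 9.43 to 22.7. By fold change Sparcl1 had rank 3 from the top among called entries with a finite value. Its rank by the size of the statistic was 17 of 15197. In no alternative did Sparcl1 lose its call or change direction, though only centring and the trend removals alter a fold change. Its 2 nearest named entries on either side in the authors' table were all untested, so no tested gene within that window could be compared with it.

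The calls on Aqp4, Ndrg2, Gfap and Sparcl1 held under all 10 alternatives. With p taken from a normal distribution of the statistic, 3 markers rather than 7 were called lower, and Slc1a2, Gja1, Aldoc and Aldh1l1 lost the call.

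**Figure D3:**
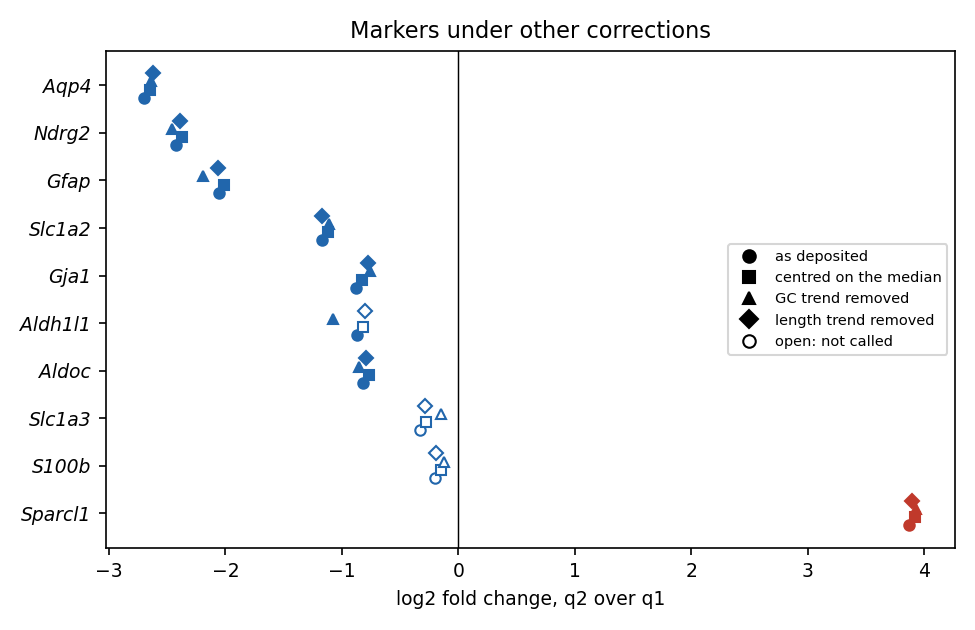
Log2 ratios of q2 to q1 (x axis) of the 10 markers (y axis) as deposited, centred on the median, and with the GC or length trend removed; filled symbols are called and open symbols not. Every marker keeps its direction, and Aldh1l1 alone changes between filled and open.

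The 10 genes lie on 8 chromosomes. A trend with transcript GC content ran through the whole table: the 1174 entries lowest in GC content (median 41.1%) had a median log2 fold change of -0.31 and the 1174 highest (median 59.9%) one of 0.30. The markers' transcripts lay between these, from 45.8% for Slc1a3 to 55.8% for Aldh1l1. With that trend removed, the median of the 10 was -0.96 and the calls were again 7 lower and 1 higher. Exons of Slc1a2 share 189 bases with the antisense gene Gm13872 and those of Aldh1l1 499 bases with the antisense gene Gm15756. Whether reads were counted by strand is not given in the sources used here, so such reads cannot be assigned to 1 gene of either pair.

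Genes beside the markers on the chromosome were counted as 40 named entries, 2 on each side of every marker. Of the 25 tested, 1 was called higher and 3 lower, and the median was -0.13. These are 4% higher and 12% lower, beside 4.24% and 3.39% of all tested entries. The 4 called neighbours, named after their values were seen, were Fjx1 beside Slc1a2 at 0.80, C1ql1 beside Gfap at -2.15, Nadk2 beside Slc1a3 at -0.88 and Cdh2 beside Aqp4 at -0.71, per the authors' deposited table.

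Promoter windows, 250 bases before to 50 after an annotated start, were found in RefSeq (GRCm38.p6) for 8 of the 10 markers, all but Aqp4 and Sparcl1. The 4 shown here are Gfap and Aldoc, which were called lower and share a STAT motif, and Slc1a3 and S100b, which were not called. Each runs 5′ to 3′ from 250 bases before the start to 30 after it, with matches to any searched motif in capitals. They are cut from chr11:102897151-102897450 (minus strand) for Gfap, chr11:78323948-78324247 (plus strand) for Aldoc, chr15:8710758-8711057 (minus strand) for Slc1a3 and chr10:76253586-76253885 (plus strand) for S100b. All 4 starts equal the 5′ end of the authors' locus.
Gfap: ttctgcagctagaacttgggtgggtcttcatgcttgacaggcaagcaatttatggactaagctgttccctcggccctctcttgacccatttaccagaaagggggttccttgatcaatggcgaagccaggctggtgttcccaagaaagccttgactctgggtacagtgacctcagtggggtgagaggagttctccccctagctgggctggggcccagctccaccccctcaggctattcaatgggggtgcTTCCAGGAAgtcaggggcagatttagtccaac
Aldoc: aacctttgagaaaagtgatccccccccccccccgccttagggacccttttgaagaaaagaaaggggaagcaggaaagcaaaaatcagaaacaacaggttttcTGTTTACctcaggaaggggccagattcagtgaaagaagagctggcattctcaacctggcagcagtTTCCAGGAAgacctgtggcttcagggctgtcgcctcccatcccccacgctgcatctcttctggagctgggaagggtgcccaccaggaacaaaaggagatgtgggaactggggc
Slc1a3: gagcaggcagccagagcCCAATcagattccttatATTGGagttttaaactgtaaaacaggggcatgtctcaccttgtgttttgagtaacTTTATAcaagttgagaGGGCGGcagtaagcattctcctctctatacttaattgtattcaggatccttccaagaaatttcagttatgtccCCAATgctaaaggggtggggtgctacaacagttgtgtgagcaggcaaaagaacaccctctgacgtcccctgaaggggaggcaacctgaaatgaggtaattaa
S100b: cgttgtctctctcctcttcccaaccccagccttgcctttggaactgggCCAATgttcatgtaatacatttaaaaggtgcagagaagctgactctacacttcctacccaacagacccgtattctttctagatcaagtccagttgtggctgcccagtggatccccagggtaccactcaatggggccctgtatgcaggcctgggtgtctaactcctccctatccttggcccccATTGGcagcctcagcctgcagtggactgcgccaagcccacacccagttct

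The motifs were searched on both strands: the STAT site (TTCCNGGAA), the forkhead core (TGTTTAC), the TATA box (TATAAA), the CCAAT box (CCAAT) and the GC box (GGGCGG). A STAT site was found in 2 of 8 marker promoters, against 1.15% of 32851 promoter windows of the same length. Its first base was at position -2 from the start in Gfap and at -83 in Aldoc. The forkhead core, a sequence read by the family to which Foxp1 belongs, was found in 1 of 8, Aldoc at position -148, against 3.65% of all windows. The CCAAT box was found in 3 of 8 (Slc1a3, Aldh1l1 and S100b) against 37.4% of all windows, and the GC box in 3 of 8 against 35.7%. The TATA box was found in 1 of 8, Slc1a3, against 13.6%. GC content of the 8 windows ran from 45.3% in Slc1a3 to 62.3% in Ndrg2, around the median of 52.7% over all windows. A match is a run of letters and was not tested as a binding site. The RefSeq windows of Slc1a2 and Gja1 held none of the 5 motifs. For Slc1a2 the annotated start lies 47755 bases inside the authors' locus.

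Other astrocyte-enriched genes, a list of 37 that excludes the 10 markers, were lower in q2 in large part. Of 36 tested, 16 were called lower and 0 higher by Cuffdiff, and at an unadjusted p under 0.05 the counts were 19 and 1. Beside the 3.39% of all entries called lower, the share was 44.4%, and the median log2 fold change was -0.55. The 4 with the largest statistics were Pla2g7, a platelet-activating factor hydrolase, at -2.72 ± 0.34, the receptor gene Gpr37l1 at -2.11 ± 0.39, the lipoprotein gene Apoe at -1.65 ± 0.32 and the potassium channel gene Kcnj10 at -1.48 ± 0.33, per the authors' deposited table. The genes called lower ranged from 1.68-fold to 6.59-fold per the authors' deposited table.

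Several astrocyte genes had values near 0. Glul, the glutamine synthetase gene that completes glutamate uptake, stood at -0.08 ± 0.35, and Fgfr3, a growth factor receptor of astrocytes and radial glia, at -0.11 ± 0.32, per the authors' deposited table. Against them stood the sodium pump subunit gene Atp1b2 at -0.97 ± 0.32, called lower per the authors' deposited table. These 3 genes were named after their values were seen. Of 14 genes for the anchoring of aquaporin 4 and for potassium uptake, 2 were called lower, Kcnj10 and the adhesion gene Hepacam at -0.78 ± 0.31 per the authors' deposited table, and 0 higher by Cuffdiff, with 1 higher at an unadjusted p under 0.05. The share called lower was 14.3%, beside 3.39% of all tested entries. Both called genes, with Mlc1, are also in the list of astrocyte-enriched genes. Genes of the dystrophin complex itself lay near 0, such as Dag1 at 0.02 ± 0.32 and Dmd at 0.09 ± 0.31 per the authors' deposited table, again named after their values were seen.

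**Figure D4:**
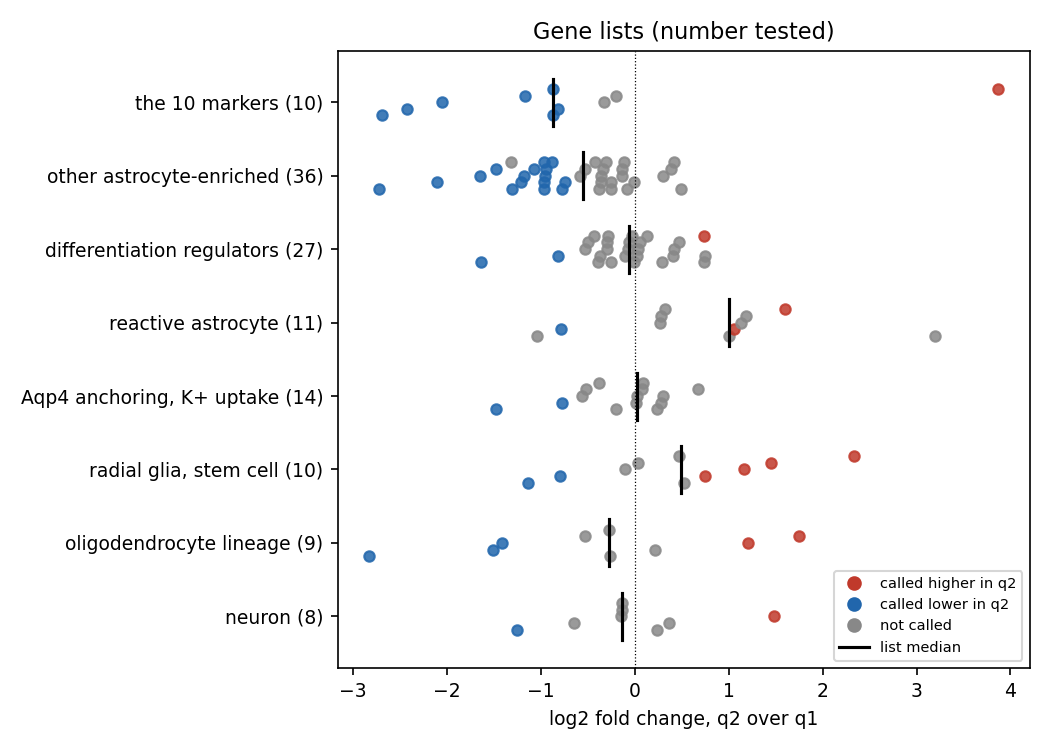
Log2 ratios of q2 to q1 (x axis), from the authors' deposited table, in 8 gene lists (y axis, with the number tested); each point is a gene coloured by its call, and a black bar marks the median of its list. The 10 markers and the other astrocyte-enriched genes have the lowest medians, -0.87 and -0.55. The reactive astrocyte genes have the highest, 1.00, though of their 11 tested genes only 2 were called higher and 1 lower.

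Among 27 tested regulators of astrocyte differentiation, 2 were called lower and 1 higher, with a median of -0.07. These are 7.41% lower and 3.70% higher, beside 3.39% and 4.24% of all tested entries. Zbtb20, a zinc finger factor that promotes astrocyte formation, was at -1.64 ± 0.35 (Cuffdiff q = 0.00162) per the authors' deposited table, and the Notch target Hes5 was at -0.82 ± 0.35. The 1 higher call was lost once the trend with GC content was taken out. The genes of the signalling route to Gfap were not called, among them Stat3 at 0.02 ± 0.31, Nfia at 0.03 ± 0.32, Sox9 at 0.29 ± 0.31 and Il6st at -0.30 ± 0.31 per the authors' deposited table, named after their values were seen.

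Reactive astrocyte genes, which rise after injury or inflammation, were largely outside the tested range: 17 of 28 in the table were not tested. Of the 11 tested, 2 were called higher, S100a10 at 1.60 ± 0.43 and Emp1 at 1.06 ± 0.47, and Cp was called lower at -0.79 ± 0.35, per the authors' deposited table. That is 18.2% higher and 9.09% lower, beside 4.24% and 3.39% of all tested entries. The call on Cp was lost with centring and with either trend removed. The inhibitor gene Timp1, named after its value was seen, had a log2 fold change of 3.20 with an error of 4.41 and was not called per the authors' deposited table.

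Paralogues of the markers were compared by their own values, and no difference from a marker was tested. Among intermediate filament genes, Nes, the filament gene of neural progenitors, was called higher at 0.75 ± 0.32 (Cuffdiff q = 0.0157) per the authors' deposited table, opposite to Gfap. Vim at 0.52 ± 0.33 and Ina at 0.77 ± 0.66 were not called per the authors' deposited table. Ndrg3 at -0.27 ± 0.31 and Ndrg4 at 0.64 ± 0.35 were not called beside Ndrg2 per the authors' deposited table. Aqp9 at -0.99 ± 0.68 and Aqp11 at -0.10 ± 0.45 were the other aquaporins tested, neither called per the authors' deposited table.

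In the SPARC family of Sparcl1, 3 of 5 tested genes were called higher and 1 lower. The shares were 60% and 20%, beside 4.24% and 3.39% of all tested entries. Sparcl1 itself, for which the family was listed, is 1 of the 3 called higher. Sparc, the closest relative of Sparcl1, was at 1.51 ± 0.32 and Fstl1 at 1.00 ± 0.32, while Smoc1 was called lower at -0.79 ± 0.31 and Spock2 was not called at -0.29 ± 0.33, per the authors' deposited table. Sparcl1 and Sparc were thus both higher in q2, at 14.6-fold and 2.84-fold.

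Among the Slc1 transporters, Slc1a2 was the 1 called of 6 tested, a share of 16.7% beside 3.39% of all tested entries called lower. That share is the marker itself, and none of its tested paralogues was called. Slc1a5, a glutamine carrier, was at 0.85 ± 0.41 and narrowly missed the call (Cuffdiff q = 0.0506) per the authors' deposited table. Slc1a1 at -0.21 ± 0.35, Slc1a4 at -0.45 ± 0.31 and Slc1a6 at -0.97 ± 0.68 were not called per the authors' deposited table. The ubiquitous aldolase gene Aldoa was at 0.30 ± 0.32, not called, beside Aldoc per the authors' deposited table. Among 11 folate enzyme genes, 3 were called lower, Mthfd2l at -1.19 ± 0.37, Aldh1l1 and its mitochondrial relative Aldh1l2 at -0.73 ± 0.34, and Shmt1 was called higher at 0.82 ± 0.34, per the authors' deposited table. Of these 11 genes 27.3% were thus lower and 9.09% higher, against 3.39% and 4.24% of all tested entries. The share called lower counts the marker Aldh1l1 itself.

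The connexin gene Gja5 was called higher at 1.19 ± 0.42, opposite to Gja1, per the authors' deposited table. Gjd2 at -0.998 ± 0.51, Gjc3 at -0.06 ± 0.33 and Gjc1 at -0.04 ± 0.38 were not called per the authors' deposited table. Of 8 tested S100 genes, 2 were called higher, S100a10 and S100a11 at 1.11 ± 0.40, and none lower by Cuffdiff, with 0 lower at an unadjusted p under 0.05 per the authors' deposited table. The share called higher was 25%, beside 4.24% of all tested entries. S100a1 at -0.70 ± 0.60, S100a4 at 0.98 ± 0.95, S100a6 at -1.45 ± 1.19, S100a13 at -0.18 ± 0.63 and S100a16 at -0.22 ± 0.33 were not called per the authors' deposited table.

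**Figure D5:**
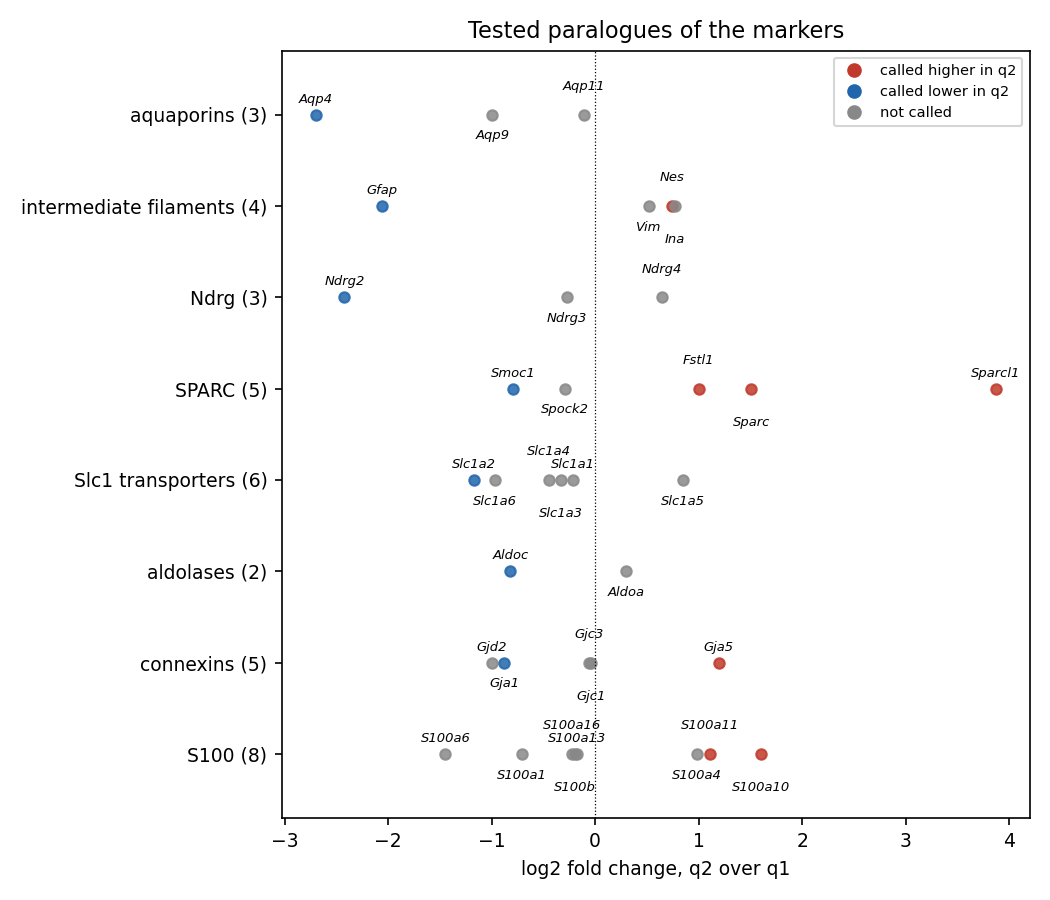
Log2 ratios of q2 to q1 (x axis), from the authors' deposited table, for the families that hold the markers (y axis, with the number tested), each gene coloured by its call. Gfap lies apart from Vim, Nes and Ina, and Sparcl1 and Sparc lie on the same side.

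Genes of other cell types moved in both directions, and their part in the markers' values was not tested. The culture's own class is among them: of 10 tested radial glia and stem cell genes, 4 were called higher and 2 lower, led by Tnc at 2.34 ± 0.32, Sox1 at 1.45 ± 0.33, Hopx at 1.16 ± 0.32 and Fabp7 at -1.13 ± 0.34 per the authors' deposited table. Of 9 oligodendrocyte lineage genes 2 were called higher and 3 lower, among them Pdgfra at -2.83 ± 0.37, Gpr17 at -1.42 ± 0.34 and Myrf at 1.20 ± 0.48 per the authors' deposited table. The 8 tested neuronal genes gave a call for Syt1 at 1.48 ± 0.43 and for Elavl3 at -1.26 ± 0.41, per the authors' deposited table. Called higher and lower were 40% and 20% of the radial glia genes, and 22.2% and 33.3% of the oligodendrocyte genes. For the neuronal genes both shares were 12.5%. Over all tested entries the shares were 4.24% and 3.39%.

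Markers of non-neural cells were mostly untested. The tested genes numbered 1 of 10 for microglia (P2ry12 at 1.37 ± 2.62), 1 of 7 for endothelium and pericytes (Kdr at 0.71 ± 0.54), and 3 of 8 for fibroblasts, per the authors' deposited table. Acta2, a smooth muscle actin gene, was called higher at 0.95 ± 0.32 per the authors' deposited table, and Col1a1 at 0.43 ± 0.56 and S100a4 were not. Of 5 ependymal genes 3 were tested and Cuffdiff called 0, with 0 at an unadjusted p under 0.05; the 2 with the largest statistics were Dynlrb2 at 0.23 ± 0.59 and Foxj1 at 0.06 ± 0.33 per the authors' deposited table. An untested gene here is one the authors' software did not test, and its level was not assessed.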

How the data were processed

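Per the labels' protocols, the SOLiD Total RNA-Seq Kit was applied to poly(A)-selected RNA. The submitters' processing notes name TopHat2 2.0.9, Cufflinks 2.2.1, Cuffdiff and build mm10 (GRCm38); which annotation and filters were applied is not given in the sources used here. The authors deposited log2 fold changes of q2 over q1, a test statistic (a score), p-values and q-values, per the file headers. All 15315 q-values equalled a Benjamini-Hochberg adjustment of p within a relative tolerance of 0.001. The smallest p was 5e-05, shared by 472 entries. The 2 columns holding a level per condition could be tied to no group and stay out of use. The authors did not test 11500 entries. Replicates are different passages per the labels, so any replicate spread in the p-values is that between passages, not between animals. How far the Cuffdiff p-values reflect each gene's own spread cannot be told without a value per library.

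Calls are the authors' at q under 0.05. Implied errors are fold change over statistic, with 95% normal intervals; loci starts were converted to count from 1. The markers, 20 further lists (253 genes) and all tests were chosen with earlier results of these data known. Named genes are the markers, Foxp1, up to 4 called members per list by largest statistic, up to 2 others where fewer than 2 were called, and all tested paralogues. Some genes that this rule names are not reported here. GC content and length came from GENCODE M21 transcripts by symbol (95.7% of 12191 single-symbol entries), and medians in 50 bins were subtracted. That step was tested on simulated data with known answers. Alternatives are in the closing section. Tables were handled with pandas 2.3.3 and numpy 2.4.6 in Python 3.11.15, statistics with scipy 1.17.1, and figures drawn with matplotlib 3.10.9. Isotonic regression (scikit-learn 1.9.0) related the authors' p to the statistic for alternatives that change the statistic.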

Additional observations from a re-analysis of the deposited data

How the results depend on the processing

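Of 100 values of the 10 markers' log2 fold changes under 10 alternatives, 88 kept both direction and call status. A further 12 lost the call, and none of the 100 changed direction. The 88 include all values of Slc1a3 and S100b, which were not called as deposited and so had no call to lose. The 12 belong to Slc1a2, Gja1, Aldoc and Aldh1l1. Only centring and the GC and length trend removals alter the fold change, so in the other alternatives no direction could change. The looser q threshold of 0.1 could also remove no call. The cause was not tested for any change below. With p from a normal distribution, calls fell to 255 higher and 202 lower over all entries, 3 lower among the markers, 7 lower among other astrocyte-enriched genes, 0 higher and 1 lower among regulators, 1 higher and 0 lower among reactive genes, 1 lower among radial glia genes and 0 lower in the SPARC family. At q under 0.01 they were 374 higher and 293 lower over all entries, 0 higher and 1 lower among regulators, 1 higher and 0 lower among reactive genes, and 1 lower among radial glia genes. With an absolute log2 fold change of at least 1 also required, they were 418 higher and 269 lower over all entries, 4 lower among the markers, 8 lower among other astrocyte-enriched genes, 0 higher and 1 lower among regulators, 0 lower among reactive genes, 1 lower among radial glia genes and 0 lower in the SPARC family. With centring or the length trend removed, 0 reactive genes and 1 radial glia gene were called lower. With the GC trend removed, 0 regulators were called higher, 0 reactive genes lower and 1 radial glia gene lower. Reading p from the statistic, an alternative chosen after seeing the data, also left 1 radial glia gene lower. No paired analysis was possible because the table holds no value per library, and no replicate could be left out for the same reason. Depth is unknown. A promoter window of the 250 bases before the start alone left the STAT site in 1 marker and the GC box in 2.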
